A study of Mus musculus with 12 samples.

Results

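The transcripts described here are those of the mouse mitochondrial chromosome, taken as every array feature whose identifier starts with TC0M. There are 30 such features among 65956 transcript features. They were measured in liver RNA of 12 mice of the C57BL6/J strain killed at 12 weeks of age, each mouse on its own Affymetrix array. The study compared ENT3 -/- knockout (KO) mice with ENT3 +/+ wild-type (WT) mice. ENT3 is an equilibrative nucleoside transporter, encoded by Slc29a3. The 4 groups were KO females, KO males, WT females and WT males, with 3 mice in each. Sex was read from the letter in each title together with the statement that groups were matched for gender. How the knockout allele was built, whether all tissues carry it and whether mice shared litters cannot be read from the labels.

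The mitochondrial genome encodes core subunits of the respiratory chain and of ATP synthase, the ribosomal RNAs of the mitochondrial ribosome and a set of transfer RNAs that it uses. Both strands are transcribed into long precursors, and tRNAs that lie between other genes are cut out of them, which frees the neighbouring messenger and ribosomal RNAs. Levels of the mature RNAs therefore depend on transcription, cutting, modification and decay, all of which are carried out by proteins encoded in the nucleus. ENT3 lies in lysosomal membranes and has also been placed in mitochondria, where nucleoside transport bears on nucleotide supply.

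Of the 30 features, 7 were paired with 1 gene symbol, 4 with several and 19 with none. Features are numbered 1 to 30 here by the last digits of their identifiers. Feature 2 was paired with mt-Rnr1, the RNA of the small ribosomal subunit, and feature 4 with both mt-Rnr2, the RNA of the large subunit, and ND1. ND2 (feature 5), ND3 (feature 11) and ND6 (feature 27), subunits of complex I, had a feature each, as did COX1 (feature 6) and COX2 (feature 7), subunits of cytochrome oxidase. Feature 9 was paired with ATP8, ATP6 and COX3, feature 13 with ND4 and ND4L, and feature 16 with ND5 and CYTB. Feature 8 was paired with mt-Tk, the lysine tRNA. Of the 16 symbols, 15 stood among the mitochondrial genes that RefSeq lists for assembly GRCm38.p6. mt-Tk did not, but RefSeq has a tRNA gene TrnK at the same place, between COX2 and ATP8, as feature 8 lies between those features by number. The nuclear gene Tk2, a mitochondrial thymidine kinase for which RefSeq lists mt-TK as a synonym, had its own feature. That feature differed by -0.13 ± 0.20 (SE) between KO and WT livers and was not called (limma adjusted p = 0.742). The 19 features without a symbol are given by number only. No mitochondrial sequence was in the sequence tables used here, so none is printed.

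Values are deposited log2 signals, and the number of arrays sets their precision. Array medians over transcript features lay between 3.79 and 3.89 in KO arrays and between 3.76 and 3.81 in WT arrays. As a check of genotype, Slc29a3 ran from 4.10 to 4.19 on the 6 KO arrays, against 4.82 to 5.29 on the 6 WT arrays, all below the 95th percentile of the negative controls. All 8 hepatocyte markers examined, Alb and Apoa1 among them, were at or near the shared maximum of 19.93 in every group. Poly-A spikes, bacterial transcripts added before labelling, ran from 5.10 to 6.06 with a mean of 5.44 in KO arrays, against 5.98 to 6.81 with a mean of 6.30 in WT arrays. A two-sided exact permutation of genotype inside each sex gave p = 0.005, the lowest value its 400 arrangements allow (Benjamini-Hochberg p = 0.01 over 6 measures). Of the 6 array measures 5 differed by this exact permutation test. In KO arrays the median of the negative controls was higher by 0.14 and their 95th percentile by 0.36 (adjusted p = 0.01 each). The median of the positive controls differed by -0.39 (exact permutation, adjusted p = 0.015) and that of all transcript features by 0.07 (exact permutation, adjusted p = 0.018). These array-level differences stand beside every genotype difference below, and their part in those differences was not tested beyond a fit with the poly-A level as a covariate.

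Most annotated mitochondrial transcripts could not show a difference. Of the 30 features, 11 sat at the shared maximum on all 12 arrays and were set aside: features 2 (mt-Rnr1), 4, 9, 11 (ND3), 13 and 16, and the unnamed features 3, 10, 18, 22 and 28. All 4 features with several symbols were among them. COX1 had the value 17.65 on every one of the 12 arrays and COX2 the value 11.78, each the same to the last deposited digit although both lie below the maximum. In all, 13 of the 30 features (43.3%) were constant over the 12 arrays, against 202 of all 65956 transcript features (0.306%), of which 30 were constant below the maximum. No level of these 13 features can be compared between genotypes.

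**Figure D1:**
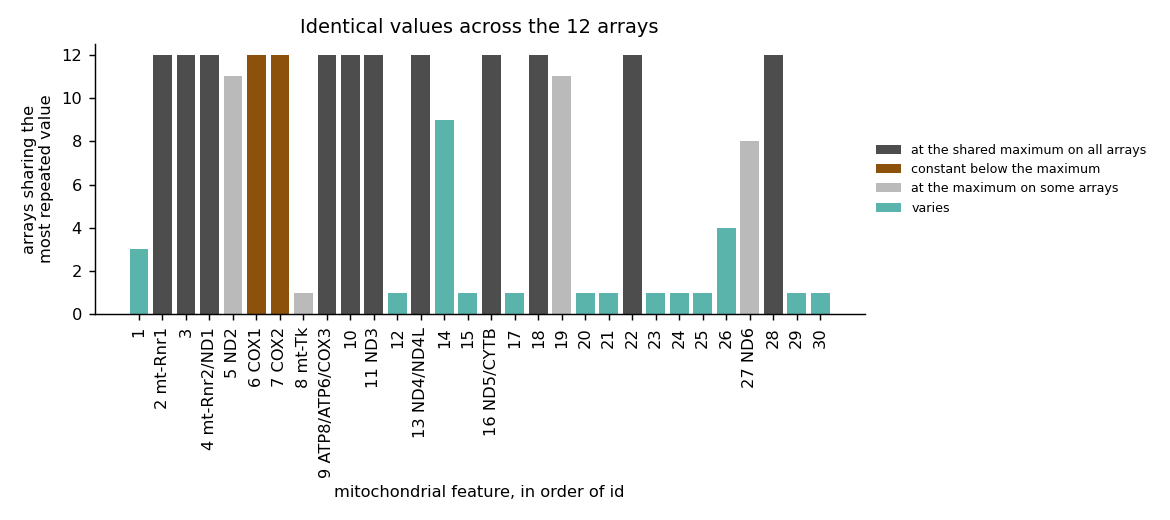
The number of arrays, out of 12, that share the most repeated value of each mitochondrial feature, in order of identifier. Bars at 12 are constant features, 11 at the shared maximum (dark grey) and COX1 and COX2 below it (brown); bars at 1 are features with a different value on every array.

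Repeated values also reached into the 17 features that varied. ND2 and the unnamed feature 19 were at the maximum on 11 arrays and below it only on the array of WT male 17, at 19.89 for ND2. ND6, the complex I subunit encoded on the light strand, was at 19.93, 19.93 and 19.93 in KO females and at 19.93, 19.89 and 19.93 in KO males. It was at 19.93, 19.82 and 19.66 in WT females and at 19.93, 19.93 and 19.86 in WT males. ND6 was thus at the maximum on 8 arrays, and its difference of 0.07 ± 0.05 (SE) is compressed and was not called (limma adjusted p = 0.474). With each array centred on its median the ND6 difference was -0.00087.

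Feature 14 had the value 19.24 on 9 arrays, and feature 26 the value 18.37 on 4 arrays. Feature 1 had 12.71, equal to the last digit, on 3 arrays of 3 different groups. These tied values lay below the shared maximum, and how they arose was not tested. Every value of all 30 features lay above the 95th percentile of the negative controls on the same array.

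Genotype was compared in all 17 varying features with a limma model of the 4 group means, fitted to every transcript feature and adjusted over all of them. Over both sexes, 2 of the 30 mitochondrial features were higher in KO livers and none was lower, which is 6.67% of the 30. Over all transcript features, 9.75% were called in either direction, 5.28% as higher and 4.47% as lower. Constant features cannot be called: over those that varied the share was 11.8% of the 17, against 9.78% of 65754. The difference between these shares was not tested. After quantile normalization the array's calls turned to 2555 higher and 4083 lower, against 3482 and 2950 as deposited, and 2 mitochondrial features were called higher and 2 lower. None was called with the poly-A covariate or with no sex term, fits that called 3 and 4428 features of the whole array. Within each sex the poly-A levels of KO and WT arrays did not overlap. A call lost in the poly-A fit therefore does not tell genotype from poly-A level. At an unadjusted p under 0.05 there were 3 of the 30 in the fit reported, against 23.2% of all features. The 2 called features were mt-Tk and the unnamed feature 25. Differences of the 17 varying features ran from -0.94 to 4.42, with 9 positive and 8 negative and a median of 0.00078, against a median of 0.048 over all varying features of the array.

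mt-Tk had by far the widest range of the 17. This tRNA carries lysine to the mitochondrial ribosome and lies between the genes for COX2 and ATP8. Its log2 signal was 18.29, 17.88 and 19.93 in KO females, against 12.64, 12.30 and 11.03 in WT females. It was 12.03, 13.65 and 11.36 in KO males, against 9.82, 10.64 and 10.18 in WT males. In neither sex did the genotypes overlap, KO being the higher, while KO males overlapped WT females. Among KO males the highest mt-Tk value, in mouse 19, stood beside the highest poly-A level of any KO array, 6.06. KO female 69, with the highest mt-Tk value of all 12 arrays, had the lowest poly-A level of all, 5.10. Whether mt-Tk goes with the poly-A level was not tested beyond the covariate fit. COX2 and feature 9, the features on either side by number, were constant, so neither neighbour of mt-Tk could be compared.

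Over both sexes the difference of mt-Tk was 4.42 ± 0.48 (SE), 21.4-fold on this scale (limma adjusted p = 0.000906), with 6 of 6 KO mice above the WT mean of their sex. The value of KO female 69 is at the shared maximum, so the KO mean and the difference are lower bounds on the deposited scale. An exact permutation of genotype within sex gave an unadjusted p of 0.005, the smallest it can give. Leaving out any 1 mouse gave differences from 4.096 to 4.67, with limma adjusted p from 0.00112 to 0.00346. The call was lost in a fit with no sex term (adjusted p = 0.0869) and with the poly-A covariate, in which the difference was 5.78 (adjusted p = 0.185).

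In females the difference of mt-Tk was 6.71 ± 0.68 (SE; limma adjusted p = 0.00133), a 105-fold difference on this scale and a lower bound because of KO female 69, and mt-Tk was the 1 mitochondrial feature called in that comparison. This call was lost with the poly-A covariate, at 8.03 (limma adjusted p = 0.063), a fit that called 74 features of the array in females. In males it was 2.13 ± 0.68 (SE), which did not pass (limma adjusted p = 0.198). The female difference exceeded the male difference by 4.58 ± 0.96 (SE), and this interaction did not pass either (limma unadjusted p = 0.000764, adjusted p = 0.321). On the whole array 6.19% of features were called in females (3.13% higher, 3.06% lower), 1.09% in males (0.579% higher, 0.506% lower) and 0.00152% for the interaction, and of the mitochondrial features none was called in males or for the interaction (limma; unadjusted p under 0.05 for 2 in males and 2 for the interaction, 6.67% of the 30 in each case, against 12.8% and 6.67% of all features).

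mt-Tk also differed between the sexes. It averaged 15.34 over the 6 females and 11.28 over the 6 males, a difference of 4.06 ± 0.48 (SE; female minus male, limma adjusted p = 0.00688). With the poly-A covariate, where 15 features of the array were called between the sexes, that call was lost, at 4.85 (limma adjusted p = 0.0856). It was the 1 mitochondrial feature called between the sexes, where 1.23% of all features were (0.623% higher in females, 0.602% lower). Of the 17 varying features 15 were higher in females, with a median of 0.413. Over all varying features 37822 of 65754 were, with a median of 0.019. The difference between these shares was not tested, and nuclear small RNAs are given below. Feature 15 is an example of those that did not pass, at 1.58 ± 0.46 (SE; limma adjusted p = 0.157). The group means were 18.70 ± 1.09 in KO females, 12.35 ± 1.18 in KO males, 11.99 ± 0.85 in WT females and 10.21 ± 0.41 in WT males (SD, n = 3 each).

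**Figure D2:**
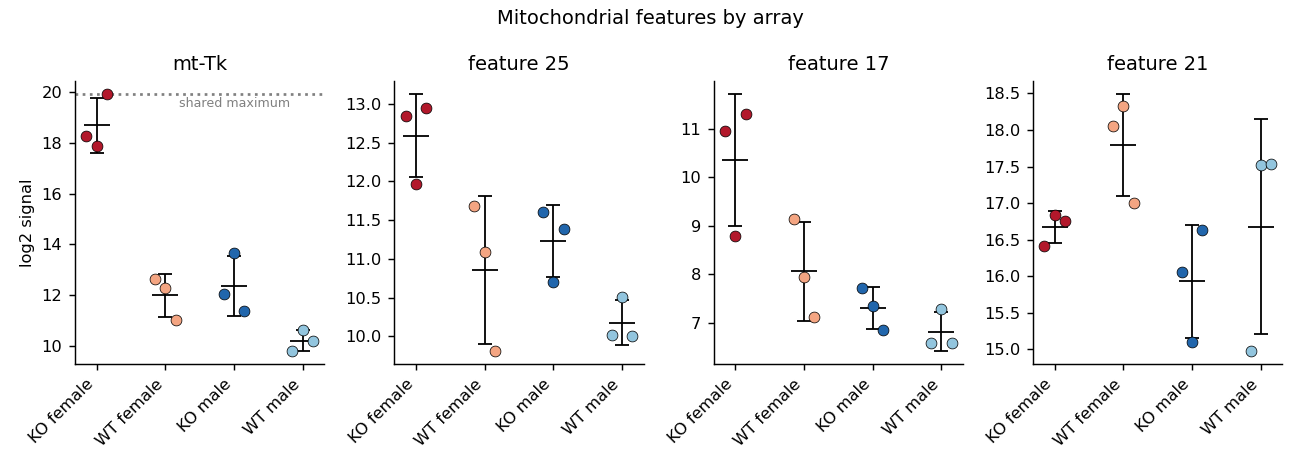
Log2 signal of mt-Tk and features 25, 17 and 21 on each array (points), with the mean and SD of each group of 3 mice (bars), each KO group left of the WT group of its sex. KO females stand above the other groups for mt-Tk, and KO female 69 touches the shared maximum (dotted line); axes differ between panels.

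Feature 25 has no gene symbol, so no role is given to it. Its signal was 12.85, 11.97 and 12.95 in KO females, against 11.68, 11.09 and 9.81 in WT females. It was 11.60, 10.70 and 11.39 in KO males, against 10.01, 10.51 and 10.001 in WT males. As with mt-Tk, KO lay above WT without overlap in each sex, and KO males overlapped WT females.

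The difference of feature 25 over both sexes was 1.39 ± 0.32 (SE), a 2.63-fold difference (limma adjusted p = 0.022; exact permutation within sex, unadjusted p = 0.005). Among females it was 1.73 ± 0.45 (limma adjusted p = 0.0521). Among males it was 1.06 ± 0.45 (limma adjusted p = 0.358). Neither passed. The call over both sexes was close to the threshold. It was lost without any 1 of 6 mice, KO females 13 and 69, KO males 18 and 39 and WT males 17 and 33, at adjusted p from 0.0501 to 0.0555. Leaving sex out of the model gave an adjusted p of 0.0752. With the poly-A covariate the difference was 0.64 (adjusted p = 0.882).

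Feature 17, also without a symbol, was at 10.96, 8.79 and 11.32 in KO females, against 9.14, 7.94 and 7.11 in WT females. It was at 7.72, 7.34 and 6.85 in KO males, against 6.59, 7.28 and 6.58 in WT males. KO overlapped WT in each sex, with KO female 40 below WT female 25. The difference over both sexes, 1.39 ± 0.47 (SE), had the size of that of feature 25 but did not pass (limma adjusted p = 0.0996). It passed without KO female 40, at 1.78 (adjusted p = 0.0139). It also passed with constant and dim features left out of the fit (adjusted p = 0.038). Females were higher than males by 2.15 ± 0.47, which did not pass (adjusted p = 0.0636).

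Among the other varying features, feature 21 was lower in each of 6 KO mice than the WT mean of its sex. It was at 16.42, 16.84 and 16.76 in KO females, against 18.05, 18.33 and 16.998 in WT females. It was at 16.06, 15.10 and 16.63 in KO males, against 14.98, 17.52 and 17.54 in WT males. KO females lay below WT females without overlap, and the males overlapped through WT male 17 alone. The difference of -0.94 ± 0.47 (SE) did not pass (limma adjusted p = 0.272), but did without WT male 17, at -1.36 (adjusted p = 0.031).

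Feature 24 differed by 1.47 ± 0.67 (SE) in females and -0.60 ± 0.67 (SE) in males (limma adjusted p = 0.247 and 0.808). It was at 12.90, 10.27 and 13.38 in KO females, against 10.99, 10.78 and 10.36 in WT females. It was at 11.48, 11.30 and 12.18 in KO males, against 12.72, 12.23 and 11.81 in WT males. The genotypes overlapped in each sex, in females through KO female 40 alone. Without KO female 40 the difference over both sexes was 0.92 and passed (adjusted p = 0.0343). Features 15, 20, 23, 29, 30 and 12 had differences over both sexes of 0.67, -0.50, -0.19, -0.06, -0.20 and -0.05, with limma adjusted p from 0.43 to 0.942. Of these, feature 23 was lower in KO males, at 9.37, 9.18 and 9.36, than in WT males, at 9.44, 9.96 and 9.80, with no overlap and no call (-0.43 ± 0.23, adjusted p = 0.491).

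**Figure D3:**
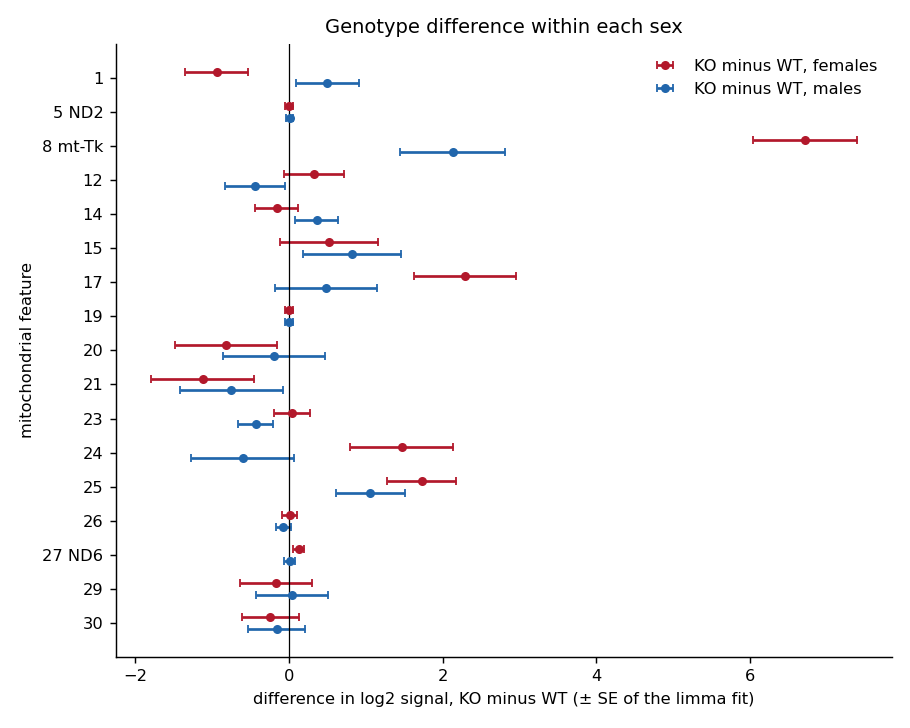
Difference in log2 signal, KO minus WT, of each of the 17 varying mitochondrial features, in females (red) and males (blue), with the SE of the limma fit as bars. mt-Tk in females, at 6.71, lies apart from the other points; features 5, 19, 26 and 27 lie at 0 or close to it and hold repeated or maximal values.

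Within 3 of the 4 groups 1 mouse was the lowest in most of the 17 features. WT female 38 had the lowest value of its group in 14 of the 17 features, WT male 17 in 13 and KO male 19 in 12. KO female 69, KO male 18, WT females 25 and 27 and WT male 23 were the single lowest in 0. Over all varying features of the array WT female 38, WT male 17 and KO male 19 were lowest of their group in 36.3%, 32.6% and 42.8%. WT male 17 had the lowest value of all 12 arrays in 8 of the 17. Its mean correlation with the other arrays of its group was 0.992 across features, which are not replicates, and the range over all arrays was 0.986 to 0.993. Without these 3 mice together, mt-Tk was at 3.76 (limma adjusted p = 0.00724) and feature 25 at 1.22 (adjusted p = 0.0394). Feature 21 then passed as lower, at -1.35 (adjusted p = 0.00636).

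**Figure D4:**
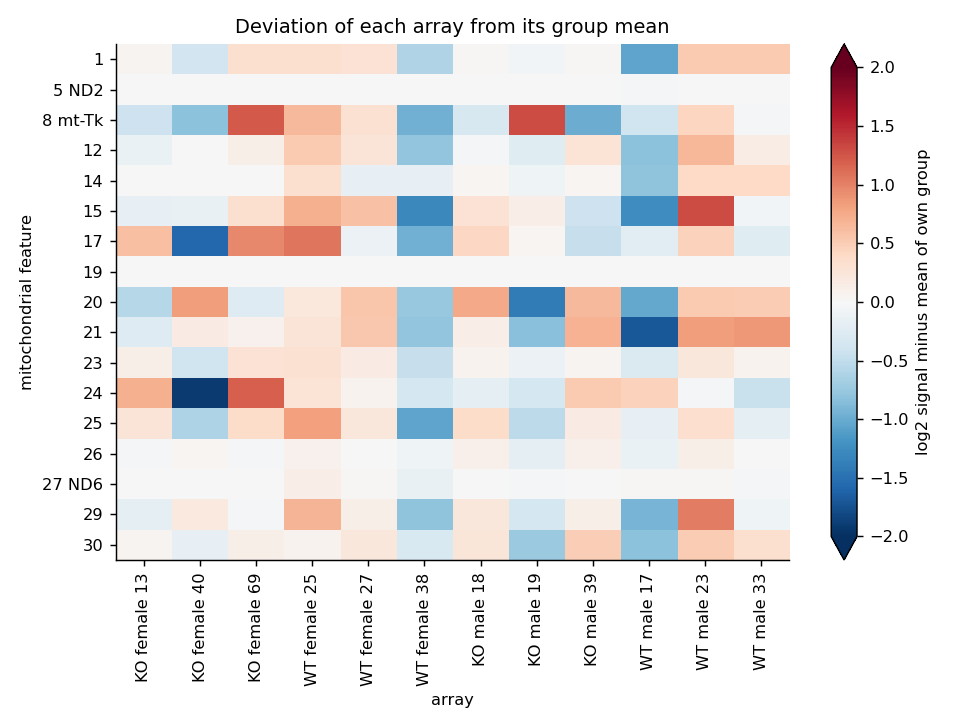
Deviation of each array from the mean of its own group of 3, in log2 signal, for the 17 varying mitochondrial features; colours saturate at 2 in either direction. Columns of WT female 38, WT male 17 and KO male 19 are mostly blue, the lowest of their group in 14, 13 and 12 features, while mt-Tk was highest in KO male 19 among KO males.

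Markers of other cells moved with genotype. Of 8 macrophage markers 6 rose and none fell, and their mean log2 signal per array was 10.65 to 13.51 in KO females and 9.33 to 11.19 in KO males, against 7.87 to 8.88 in WT females and 7.46 to 8.45 in WT males. Of 7 neutrophil markers 4 rose, with means of 8.17 to 8.78 in KO females and 5.51 to 8.98 in KO males, against 4.65 to 4.79 in WT females and 4.29 to 5.04 in WT males. S100a8 and Retnlg were among the 4, while Mpo, called at 0.88, and Ly6g, Elane and Cxcr2, not called, lay within the negative controls on every array. The 6 lymphocyte markers measured all lay there, and none was called. Of 6 endothelial markers 3 rose and 2 fell, and of 4 erythroid and 5 cholangiocyte markers 1 rose in each list. Hemgn, the erythroid marker called, at 0.33, lay within the negative controls on every array. No stellate marker of 6 was called. In all, 3 of 4 erythroid, 4 of 6 stellate and 3 of 5 cholangiocyte markers lay within the negative controls. Over all genes with a feature of their own 14.2% were called. The part of any of these cells in the mt-Tk signal was not tested, and in whole liver a change in cell numbers and a change per cell cannot be told apart.

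Small RNAs encoded in the nucleus give a setting for a tRNA measured on this array. Of 66 features with a snoRNA symbol, small RNAs that guide rRNA modification, 13 were called higher and 1 lower in KO livers, which is 21.2%. The share of all transcript features called was 9.75% (5.28% higher, 4.47% lower). The median difference of the 63 that varied was 0.73. snRNAs of the spliceosome (26 features) had 5 higher and none lower (19.2%), with a median of 0.36 over the 24 that varied. scaRNAs (6 features) had 2 higher (33.3%) and a median of 0.63. microRNA features, which carry precursor symbols, had 55 higher and 3 lower of 645, which is 8.99%, with a median of 0.10. The medians of all 4 classes were positive after quantile normalization and after median centring too, at 0.64 for snoRNAs, 0.27 for snRNAs, 0.54 for scaRNAs and 0.04 for microRNAs after quantile normalization. With the poly-A covariate they were 0.11, 0.24, 0.18 and 0.01 in the same order. No feature of any of the 4 classes was called in that fit, against 3 on the whole array. The highest difference in any of the 4 classes was 2.31, in the microRNA class, against 4.42 for mt-Tk. Between the sexes, 61 of 63 varying snoRNA features, 23 of 24 snRNA features and 6 of 6 scaRNA features were higher in females. Their medians were 0.703, 0.71 and 0.598. Among microRNA features 367 of 644 were higher in females, with a median of 0.026. On the whole array 37822 of 65754 varying features were, with a median of 0.019. No test set mt-Tk against these classes.

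Nuclear genes that express the mitochondrial genome were lower in KO livers where they were called. Of 83 such genes in 5 lists, 76 had a feature of their own. Of these 32 fell, none rose and 44 did not pass, with a median difference of -0.27. Over all 30145 genes with a feature of their own 14.2% were called, 1755 higher and 2511 lower, with a median of 0.03. No list gene was called higher after quantile normalization or median centring, with 40 and 43 called lower. On the whole array 4083 and 4001 features were called lower in these 2 fits, against 2950 in the fit reported. In the fit without KO male 19, WT female 38 and WT male 17, which called 3593 features of the array against 6432, the list count was 17. It was 0 with the poly-A covariate, a fit that called 3 features of the whole array.

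Of 9 measured genes of mitochondrial transcription, 3 fell. Tefm, the elongation factor of the mitochondrial polymerase, differed by -0.69 ± 0.15 (SE; limma adjusted p = 0.0187). Tfb1m, which methylates the small ribosomal RNA, differed by -0.51 ± 0.10, and the mitochondrial topoisomerase Top1mt by -0.33 ± 0.07. Mterf3, a repressor of mitochondrial transcription, was at -0.39 ± 0.12 and did not pass (limma adjusted p = 0.0801). Tfam, which packages mitochondrial DNA, and the polymerase Polrmt, chosen after their values were seen, were at -0.04 ± 0.07 and -0.03 ± 0.06 and were not called (limma adjusted p = 0.805 and 0.784). Polrmt lay within the negative controls on every array, as did Mterf2 and Mterf4, which were not called.

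Of 19 genes of mitochondrial RNA processing and decay, 7 fell. Pnpt1, an exoribonuclease that degrades mitochondrial RNA, ran from 7.14 to 7.85 in KO livers with a median of 7.35, against 8.02 to 8.56 with a median of 8.15 in WT livers. The genotypes did not overlap, and the difference was -0.83 ± 0.13 (SE; limma adjusted p = 0.00345). Its partner helicase Supv3l1 differed by -0.49 ± 0.10 (limma adjusted p = 0.0107). Fastk, which maintains the ND6 messenger, was at -0.41 ± 0.08, and Fastkd2, needed for the large ribosomal RNA and within the negative controls here, at -0.33 ± 0.08. Among the enzymes that cut tRNAs out of the precursors, all chosen after their values were seen, Prorp (-0.28 ± 0.08, limma adjusted p = 0.0442) fell. Hsd17b10 and Elac2 were at -0.74 ± 0.21 and -0.31 ± 0.09 and did not pass (limma adjusted p = 0.0548 and 0.0664). Nor did Trmt10c, at -0.14 ± 0.06 and within the negative controls on every array (limma adjusted p = 0.19). Ptcd1, Fastkd3 and Angel2, also of this list and not called, lay within them as well. Trnt1, which adds the CCA end to tRNAs, was at 0.12 ± 0.12 (limma adjusted p = 0.629).

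Of 16 genes of tRNA modification, 4 fell: Trit1, an isopentenyltransferase (-0.66 ± 0.12), Osgepl1, which makes a threonylcarbamoyl modification (-0.48 ± 0.07), Nsun3, a methyltransferase of the methionine tRNA (-0.48 ± 0.12), and Mto1 (-0.41 ± 0.08). Mto1 acts on the wobble base of several mitochondrial tRNAs, the lysine tRNA among them. Of the 16 genes 10 lay within the negative controls on every array, so the list is measured in part only.

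Of 22 aminoacyl-tRNA synthetases and related enzymes, 10 fell. Hars2 and Sars2, among those called, lay within the negative controls on every array. So did Aars2, Cars2, Ears2, Lars2, Mars2, Pars2, Vars2, Wars2, Qrsl1 and Mtfmt, none of them called. This list too is thus measured in part only. Gatc and Gatb, subunits of the amidotransferase that makes glutaminyl-tRNA, differed by -1.21 ± 0.14 and -0.85 ± 0.10. Gatc ran from 10.36 to 11.33 in KO livers with a median of 10.61, against 11.60 to 12.24 with a median of 11.96 in WT livers, without overlap (limma adjusted p = 0.00129). Nars2 and Iars2, which charge the asparagine and isoleucine tRNAs, were at -0.78 ± 0.07 and -0.74 ± 0.09. Kars, the lysyl-tRNA synthetase of both cytosol and mitochondria, chosen after its values were seen, ran from 8.20 to 8.79 in KO livers, against 8.83 to 9.23 in WT livers. Its difference was -0.58 ± 0.11 (limma adjusted p = 0.00937), opposite in sign to that of mt-Tk.

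Of 10 translation factors, 8 fell, with a median of -0.60. Mtrf1, which was called, and Tsfm and Mtrf1l, which were not, lay within the negative controls on every array. Taco1, an activator of COX1 translation, ran from 6.56 to 7.22 in KO livers, against 7.39 to 8.18 in WT livers, and differed by -0.98 ± 0.14 (SE; limma adjusted p = 0.00256). The initiation factor Mtif3 (-0.74 ± 0.09, within the negative controls), and Gfm2 and Mrrf, which recycle the ribosome (-0.69 ± 0.07 and -0.52 ± 0.09), fell as well. By sex, 22 of the 76 genes were called lower in females and 3 in males, and none higher in either. That is 28.9% and 3.95% of the 76, against 5.76% and 0.959% of all genes with a feature of their own; the difference between the sexes was not tested for the lists. Poly-A spike signal was lower and macrophage marker signal higher in the same KO arrays, and their part in these falls was not tested beyond the covariate fit.

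**Figure D5:**
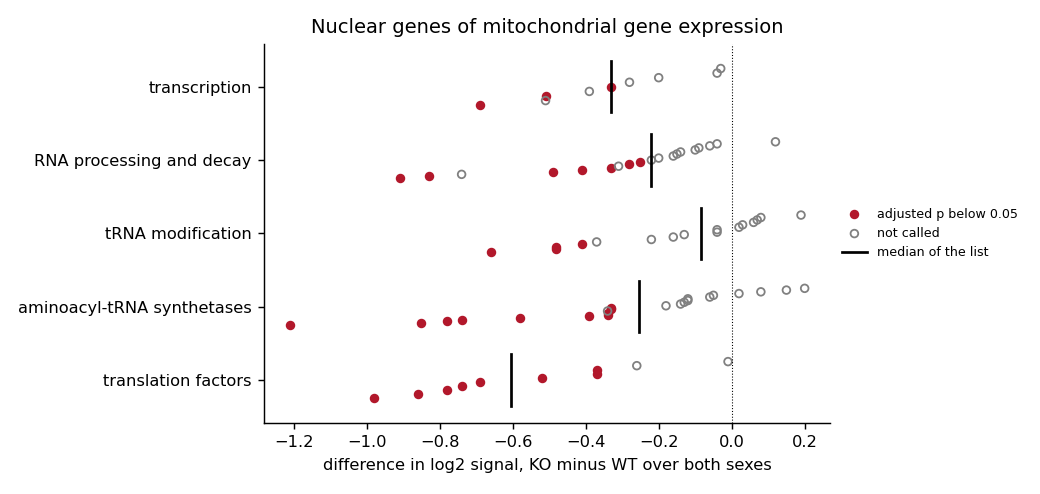
Difference in log2 signal, KO minus WT over both sexes, of 76 nuclear genes in the 5 lists, with called genes filled and list medians as vertical bars. All 32 called genes lie below 0, and the translation factors have the lowest median, -0.60.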

How the data were processed

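The deposited table holds 1 column of log2 signal per array for 12 arrays. Per the submitters' processing notes, the authors made these log2 values in Transcriptome Analysis Console; no source used here gives its version, background correction, normalization, summarisation or build. The shared maximum of 19.93 was read from the values. Control features were kept out of the tests, and 65956 transcript features were fitted by lmFit and eBayes of limma 3.58.1 under R 4.3.3 (4 group means, 8 residual degrees of freedom), with Benjamini-Hochberg adjustment over all features and a threshold of 0.05. Constant features stayed in the fit. A gene's value is that of its single-symbol feature with the highest mean. No animal number occurs in more than 1 group. The limma p-values set differences of group means against the spread between mice within groups, pooled over the 4 groups. Labels do not name litters, so whether the mice are independent could not be checked.

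The features, lists and tests were chosen with earlier results of these data known. All members are given. With every array's value are those called in a KO minus WT contrast or the interaction, those at 2-fold or more with an unadjusted p under 0.05, and those at the maximum on some arrays. Features 21 and 24 were given in full after their values were seen. Up to 4 genes per list are those with the smallest p. In data simulated with the real spread, the fit of KO against WT to 65956 features recovered 32%, 80%, 100% and 100% of 50 features each changed by 0.5, 1, 2 and 4 (log2), with 15 false calls. The simulation drew independent normal noise, with no ceiling, no tied values and no array-level difference between genotypes. Its rates therefore do not describe features at the maximum, or calls made beside the array-level differences seen here. Alternatives were other normalizations, a poly-A covariate, a filter, another variance model, no sex term, single-sex fits, 1.5-fold, permutation and leaving out each mouse.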

Additional observations from a re-analysis of the deposited data

Results flagged for a closer look

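In 3 features every KO female and every KO male lay on opposite sides of the WT mean of their sex. How many features of the whole array did so was not counted, so this does not set the 3 apart. The limma unadjusted p of the interaction was under 0.05 in 6.67% of the 30 features and in 6.67% of all transcript features. For feature 1, KO females lay below and KO males above, and the difference in females minus that in males was -1.44 ± 0.58 (SE; limma unadjusted p = 0.0319, adjusted p = 0.697). For feature 12, KO females lay above and KO males below, with 0.77 ± 0.55 (adjusted p = 0.869). For feature 14, which held 1 repeated value on 9 arrays, KO females lay below and KO males above, with -0.52 ± 0.39 (adjusted p = 0.877). Here all KO females equalled WT females 27 and 38, and KO males 18 and 39 equalled WT males 23 and 33, at 19.24. Only WT female 25, at 19.72, and WT male 17, at 18.03, moved the WT means off that value. None of these interactions passed. In features 1 and 14 WT male 17 was the lowest of all 12 arrays. No formal outlier test was run, since each group holds 3 mice.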

How the results depend on the processing

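Among recomputed counts and medians, 112 stayed within 1.5 times the reported count or within the spread between mice, and 24 moved further. The 112 hold counts of 0 that were 0 in the reported fit too. That was so for every alternative for the interaction, and in males for all but quantile normalization. The total is therefore no measure of how stable the calls were. Over both sexes the count of mitochondrial features called was 4 after quantile normalization (2 higher, 2 lower), 0 with the poly-A covariate and 0 with no sex term. Without any 1 mouse it was 1 to 4: 4 without KO female 40, and 1 without KO females 13 or 69, KO males 18 or 39, or WT male 33. In females it was 2 with median centring, 2 with a trended and robust variance, 3 with the filter and 0 with the poly-A covariate. The female count was 3 without KO male 19, WT female 38 and WT male 17 (1 higher, 2 lower). Leaving out any 1 mouse gave 1 to 4 in females (4 without KO female 40, 3 without WT female 25). In males it was 1 after quantile normalization, called lower. Between the sexes it was 2 after quantile normalization (1 higher and 1 lower in females), 2 with the filter and 0 with the poly-A covariate. Leaving out any 1 mouse gave 1 to 3 between the sexes (3 without WT female 38, 2 without KO female 40). The list count was 0 with the poly-A covariate and 17 without the 3 mice, an alternative chosen after seeing the data. Signs changed, with no call in the reported fit, for ND2 (-0.063), feature 19 (-0.068) and ND6 (-0.00087) with median centring, which takes the genotypes' 0.069 difference in array median off every feature. They changed for feature 14 after quantile normalization (-0.39, adjusted p = 0.0202, lower) and without the 3 mice (-0.12), and for features 24 (-0.71) and 29 (0.034) with the poly-A covariate. Without any 1 mouse, differences ran from -0.26 to 0.11 for feature 12, -0.099 to 0.20 for feature 14, -0.064 to 0.019 for feature 26 and -0.30 to 0.19 for feature 29. After quantile normalization feature 26 was called lower, at -0.54. Apart from those sign changes with median centring, the cause of these changes was not tested. No paired analysis was possible because no animal number occurs in more than 1 group. The array ceiling limits 11 of the 13 constant features; COX1 and COX2 were constant below it.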
